A study of Mus musculus with 4 samples.

Results

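Xcl1, Xcr1, Flt3l and Flt3 form a pair of ligand and receptor systems that connect lymphocytes with dendritic cells (DC). XCL1 is a chemokine released by natural killer (NK) cells and activated CD8 T cells, and its receptor XCR1 is a G protein-coupled receptor that marks type 1 conventional DC (DC1), the subset known for cross-presentation of tumor antigen. FLT3L is a growth factor that drives the development and expansion of DC, and its receptor FLT3 is a tyrosine kinase carried by blood progenitors and by DC. The 4 genes were taken by symbol from the 31253 genes of the count tables, of which 20559 had at least 1 UMI (unique molecular identifier, a count of captured transcripts) in the cells used.

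The cells were live CD45+ cells from the tumor-bearing hemisphere of 4 WT and 4 CaMKK2 KO mice, collected on day 14 after implantation of CT2a, a mouse glioma line. The knockout was carried by the germline on the C57Bl/6 background, so that all cells of the host, and not the implanted tumor cells, lacked the calcium-dependent kinase CaMKK2. Mice were told apart by hashtag antibodies, but each genotype had 1 10X channel for its 4 mice, and genotype and channel cannot be told apart. Of 6689 WT and 7271 CaMKK2 KO barcodes, 5130 and 5624 were used, with 1025 to 1660 cells and 11840466 to 20777426 UMIs per mouse. The barcode sequences common to both libraries numbered 42.

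The targeted gene was read as a check of the labels. Camkk2 stood at 28.0, 29.1, 37.9 and 28.1 CPM (UMIs scaled to the same total for each sum of cells) in all cells of WT mice 1 to 4 and at 14.7, 18.3, 13.3 and 22.6 CPM in CaMKK2 KO mice 1 to 4. The groups did not overlap, while transcripts of the gene were still counted in the KO mice. In tumor-associated macrophages (TAM) Camkk2 was lower by a log2 fold change of -1.11 (edgeR, adjusted p = 0.00189), and in all cells by -0.84 (adjusted p = 0.0589). In classical monocytes the value was -1.24 (edgeR, adjusted p = 0.00227). The difference was negative but did not pass in NK cells (-0.47, adjusted p = 0.355), CD8 T cells (-1.45, 0.174) and type 2 conventional DC (DC2, -0.92, 0.333). Where the deleted part lies relative to the counted 3' ends is not given in the sources used here.

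Cells were placed in classes by the number of marker genes with a UMI, and none of the 4 genes took part in these gates. Xcl1 (chr1:164931644-164935527, mm10, minus strand, 3 exons) overlaps the antisense gene Gm20743, and Xcr1 lies at chr9:123852315-123862029 on the minus strand with 2 exons. Flt3l (chr7:45129788-45136432, minus strand, 8 exons) is overlapped on its own strand by Gm45713, which had 0 UMIs in every mouse. Flt3 (chr5:147330741-147400489, minus strand, 24 exons) overlaps the antisense gene Gm26597 and lies 24.6 Mb from Camkk2 on the same chromosome.

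The promoters of the chemokine and its receptor are shown because most of the transcripts of each were held by 1 class. They comprise the 250 bases before the RefSeq start (GRCm38.p6), read 5′ to 3′ on the minus strand, at chr1:164935523-164935772 for Xcl1 and chr9:123862030-123862279 for Xcr1. Capitals mark matches, on either strand, to the motif letters searched.

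Xcl1: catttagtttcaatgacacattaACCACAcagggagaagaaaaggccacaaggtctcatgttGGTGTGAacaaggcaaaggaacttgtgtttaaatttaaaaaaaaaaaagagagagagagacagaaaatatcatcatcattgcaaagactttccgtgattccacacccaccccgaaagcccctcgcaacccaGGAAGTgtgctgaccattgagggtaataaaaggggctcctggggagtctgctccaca

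Xcr1: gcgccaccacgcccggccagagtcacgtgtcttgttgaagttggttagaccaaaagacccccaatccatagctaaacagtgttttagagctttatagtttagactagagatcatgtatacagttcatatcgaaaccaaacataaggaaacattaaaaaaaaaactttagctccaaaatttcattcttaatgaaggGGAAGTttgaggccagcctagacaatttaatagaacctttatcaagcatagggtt

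The Xcl1 promoter held the ETS letters GGAAGT, which 19.7% of 32851 promoters of this length held, the T-box letters GGTGTGA (3.33% of promoters) and the RUNX letters TGTGGT (14.0%), the last on the opposite strand. Of these the Xcr1 promoter held only the ETS letters. The Flt3 promoter also held the ETS letters, and the Flt3l promoter held the interferon regulatory factor (IRF) letters GAAA and GAAA with 2 bases between them (2.98%). The AP-1 letters TGANTCA (6.75%) and the STAT letters TTCNNNGAA (7.02%) matched in none of the 4. A match is a description of letters and no measurement of binding, and no motif overlapped another.

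Summed over the 8 mice, NK cells held 73.6% of the 18419 Xcl1 UMIs and DC1 held 87.6% of the 1175 Xcr1 UMIs. Cells that met no gate, or several (ungated), held 15.8% of the Xcl1 UMIs, and 43.3% in CaMKK2 KO mouse 3. The 2325 Flt3l UMIs were spread over NK cells (45.2%), CD8 T cells (17.7%), TAM (9.59%) and further classes. In single mice TAM, microglia and monocytes together held 9.29% to 26.7% of Flt3l UMIs. The 2603 Flt3 UMIs were spread over DC2 (32.2%), DC1 (22.9%), mature DC (16.9%) and plasmacytoid DC (pDC, 7.68%). By genotype, mature DC held 10.4% of a mouse's Flt3 UMIs in WT and 29.5% in CaMKK2 KO mice (exact permutation p = 0.143), DC2 34.6% and 24.5% (p = 0.200), and DC1 26.8% and 17.5% (p = 0.0857), the groups overlapped in each, and none passed after adjustment over 10 shares (exact adjusted p = 0.357, 0.400 and 0.286). The ligands lay mainly with lymphocytes and the receptors with DC.

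**Figure D1:**
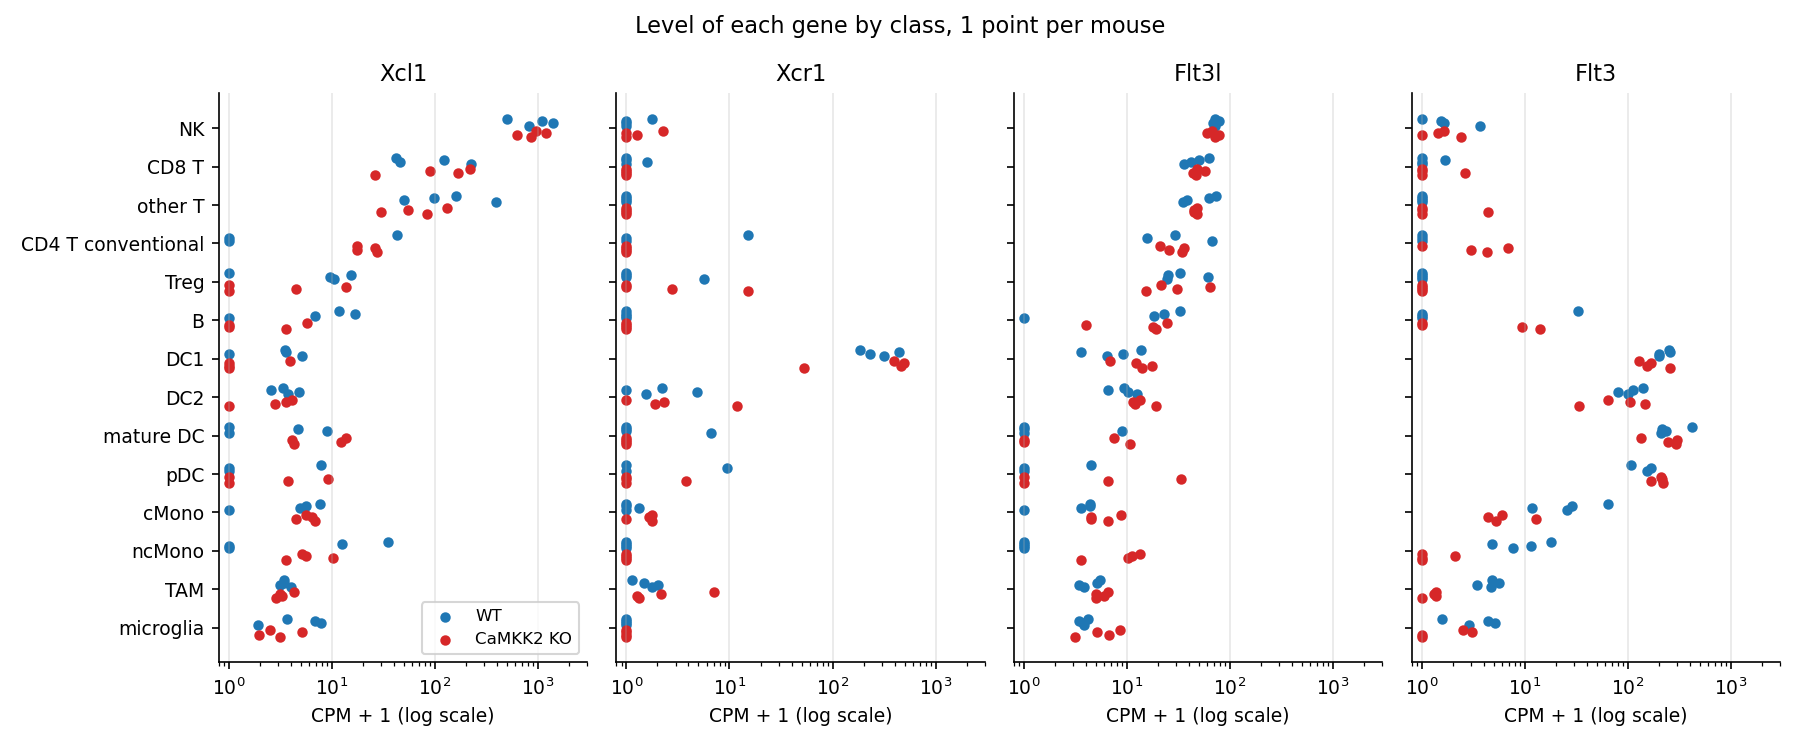
Level of Xcl1, Xcr1, Flt3l and Flt3 in 14 marker-gated classes, in CPM plus 1 on a log axis, with 1 point per mouse (WT blue, CaMKK2 KO red). Xcl1 was highest in NK cells, Xcr1 stood apart in DC1, Flt3l was spread over NK and T cells, and Flt3 over the 4 DC classes, with lower levels in cMono.

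Xcl1 was highest in NK cells. It measured 497, 1087, 1410 and 817 CPM in WT mice 1 to 4 (953 ± 389, SD, n = 4) and 947, 1204, 625 and 851 CPM in CaMKK2 KO mice 1 to 4 (907 ± 240, n = 4). The lowest and the highest NK value both came from WT mice, and the groups overlapped. The fitted log2 difference in NK cells was -0.07 ± 0.24 (SE; CaMKK2 KO over WT, edgeR, adjusted p = 0.934), in a fit that called 3.09% of 9515 genes.

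CD8 T cells carried about an order of magnitude less Xcl1. Their levels were 41.2, 120, 45.1 and 222 CPM in WT mice 1 to 4 and 215, 88.4, 166 and 25.3 CPM in CaMKK2 KO mice 1 to 4. The 41.2 CPM of WT mouse 1 is 6 UMIs in 16 cells, of which 1 cell held 5. In WT mouse 4, 1 cell held 41.0% of the UMIs, and the level was 133 CPM without it. Within both genotypes single mice were far apart, with no separation of the groups. They differed by 0.18 ± 0.43 on the log2 scale (adjusted p = 0.911), where 1.43% of 8748 genes were called. In CD4 T cells it was 0.48 ± 0.60 (adjusted p = 0.777), where 1.55% of 7280 genes were called. WT mouse 1 had 6 cells in that sum, of which none was a conventional CD4 T cell.

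T cells placed in neither the CD8 nor the CD4 class (other T), which still held CD8 list transcripts at a summed 151 CPM and CD4 list transcripts at 123 CPM, had 158, 96.3, 49.4 and 390 CPM of Xcl1 in WT mice 1 to 4 and 129, 53.8, 28.7 and 82.2 CPM in CaMKK2 KO mice 1 to 4. In the order of classes, NK cells exceeded other T cells by 3.11 on a log2(CPM + 10) scale in 8 of 8 mice (exact sign-flip permutation test over mice, p = 0.00781, the smallest that 8 mice allow, and 0.0339 after adjustment over 13 neighbouring pairs). The pairs, and the higher class of each, were set by the mean levels of these same mice. Their p-values are therefore no independent test of the order, here and for the other genes. Other T and CD8 T cells did not differ beyond their spread (difference 0.02, adjusted p = 0.953). CD8 T cells exceeded conventional CD4 T cells by 2.23 in 6 of 7 mice (exact adjusted p = 0.0677).

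A UMI of Xcl1 was seen in 61.4% of NK cells (median depth 7425 UMIs), 25.0% of CD8 T cells and 15.2% of other T cells. B cells, which should lack it, reached 2.64% at a median depth of 4221 UMIs, and TAM 4.07% at 15496.5. For thinned shares, cells were cut down to 3000 UMIs and cells with fewer were left out, which kept 1364 of 1397 NK and 313 of 341 B cells. These shares were 48.7% in NK, 14.1% in CD8 T, 13.7% in other T, 1.60% in B cells and 0.920% in TAM. Thinned shares in NK cells were 55.0% ± 12.01 in WT and 45.4% ± 6.40 in CaMKK2 KO mice (n = 4 each, exact permutation test, p = 0.257, adjusted over 9 shares 0.771).

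Within the NK class Xcl1 was carried unevenly. The median NK cell held 1, 5, 3 and 3 Xcl1 UMIs in WT mice 1 to 4 and 1, 0, 1 and 1 in CaMKK2 KO mice 1 to 4, while the 10% of cells with the most Xcl1 held 50.1% to 85.0% of a mouse's Xcl1. Cells with at least 10 UMIs made up 13.6%, 34.0%, 29.9% and 28.9% of NK cells in WT mice 1 to 4 and 22.6%, 12.6%, 22.6% and 21.6% in CaMKK2 KO mice 1 to 4. Most NK transcript therefore came from a minority of cells in every mouse. Median depth of NK cells was 9405, 8557, 7558 and 9413 UMIs in WT mice 1 to 4. In CaMKK2 KO mice 1 to 4 it was 6927, 5465, 10722 and 5610 UMIs, and its part in these counts was not tested.

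**Figure D2:**
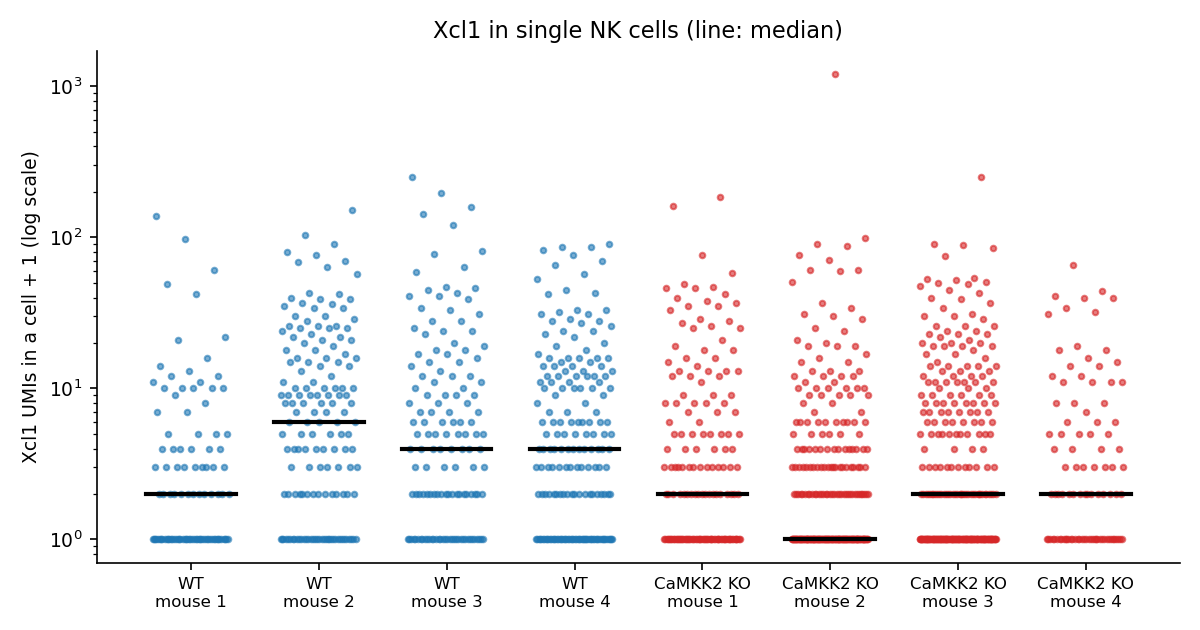
Xcl1 UMIs plus 1 in each NK cell on a log axis, by mouse, with the median as a line. Most cells lie near 0 while a tail reaches 65 to 252 UMIs in 7 mice and 1206 in CaMKK2 KO mouse 2.

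Single cells weighed on the Xcl1 level of a whole mouse. In CaMKK2 KO mouse 2 an NK cell with 1206 Xcl1 UMIs held 45.9% of the Xcl1 of the class, and the NK level fell from 1204 to 658 CPM without it. These UMIs were 5.64% of the 21373 in the cell, which also had 524 UMIs of Ccl4 and 241 of Ccl3, chemokines of activated NK and T cells, and 294 of Gzmb. In CaMKK2 KO mouse 3 a cell with 4 T and 6 NK markers met both of these gates and so stayed ungated. Its 34726 UMIs, beside a median of 10722 in NK cells of that mouse, held 1438 of Xcl1, 632 of Gzmc and 365 of Gzmb. The last pair are granzymes of cytotoxic granules. A further ungated cell of that mouse had 380 Xcl1 and 226 Ccl4 UMIs. These 3 cells, those with at least 300 Xcl1 UMIs, were looked up after their values had been seen.

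Xcl1 in NK cells was also read against activation and tissue type. NK cells with a Gzmc UMI had more Xcl1 than those without in 7 of 8 mice, at a mean log2 difference of 0.80 ± 0.74 (SD; exact sign-flip permutation p = 0.0156, adjusted over 10 comparisons 0.156). NK cells with more markers of type 1 innate lymphoid cells differed from those with more circulating-type markers by 0.17 ± 0.67 (exact adjusted p = 0.755). Neither passed the adjusted threshold of 0.05. Median depth in WT mice was 13758 to 15170 UMIs in NK cells with Gzmc and 5268 to 7566.5 in those without. In CaMKK2 KO mice it was 6631 to 15484.5 and 5137 to 5680 UMIs, and its part in the Gzmc difference was not tested.

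Over all cells Xcl1 was 52.3, 137, 134 and 128 CPM in WT mice 1 to 4 and 119, 145, 223 and 59.5 CPM in CaMKK2 KO mice 1 to 4. In such sums, fewer cells of a type and less RNA per cell cannot be told apart. This gave a log2 difference of 0.28 ± 0.40 (edgeR, adjusted p = 0.758), in a fit that called 1.64% of 13229 genes. It became -0.039 when the cell with the most Xcl1 was left out of each mouse.

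Xcr1, the receptor of XCL1, was confined to few cells. DC1 had 186, 437, 232 and 313 CPM in WT mice 1 to 4 (292 ± 110, n = 4) and 398, 492, 466 and 52.0 CPM in CaMKK2 KO mice 1 to 4 (352 ± 204, n = 4). The low value of CaMKK2 KO mouse 4 rests on 3 cells, and the other 3 KO mice lay in the upper part of the WT range or above it. Fitted over the 8 mice, the difference was 0.36 ± 0.37 on the log2 scale (adjusted p = 0.867), where 0.517% of 5799 genes were called. DC1 exceeded DC2 by 4.56 on the log2(CPM + 10) scale in 8 of 8 mice (exact sign-flip permutation, adjusted p = 0.0339).

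A UMI of Xcr1 was seen in 71.4% of the 133 DC1 and in 1.72% of DC2. It was seen in 0 of 341 B cells, which allows a share of cells with a UMI of up to 0.880%, and in 0 of 625 microglia, which allows up to 0.480%. These are limits from counting error and do not bound the cells that express the gene. Mature DC had 1 Xcr1 UMI in 169 cells. Thinned to 3000 UMIs, 49.5% ± 8.87 of WT and 45.1% ± 9.77 of CaMKK2 KO DC1 had a UMI (exact permutation p = 0.486, adjusted 0.771).

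The DC1 class was checked on genes that the gate did not use. Irf8, the factor on which DC1 depend, was at 691 to 2318 CPM in DC1 of the 8 mice and at 75 to 561 CPM in DC2. Wdfy4, needed for cross-presentation, was at 402 to 643 CPM against 87 to 177 CPM, and Batf3, a further DC1 factor, at 135 to 234 against 39 to 80 CPM. Of these only Wdfy4 was low in mature DC (0 to 18.6 CPM), which had Batf3 at 168 to 419 CPM and Irf8 at 1052 to 2961 CPM, and NK cells had Irf8 at 769 to 1352 CPM. The DC1 sums also held transcripts of the classical monocyte list, at a summed 2477 CPM over 6 of 6 markers, beside 1546 CPM of the DC1 list (7 of 7) and 605 CPM of the DC2 list (6 of 6). The same monocyte list summed to 2334 CPM in DC2, beside 1772 CPM of the DC2 list, to 6303 CPM in pDC, beside 6414 CPM of the pDC list and 4717 CPM of the TAM list, and to 429 CPM in mature DC, beside 10643 CPM of the mature DC list. Their part in the values was not tested.

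Xcr1 varied with the number of DC1 markers a cell showed. Cells were pooled over the mice of a genotype here, and single mice were not compared. Among cells with 4 of the 7 markers, 47.1% of WT (8 of 17) and 20.0% of CaMKK2 KO cells (3 of 15) had an Xcr1 UMI, at 49.5 and 38.4 CPM. With 6 markers these were 93.3% and 91.7%, at 356 and 670 CPM, and with all 7 markers each of 15 WT and 9 CaMKK2 KO cells had one, at 569 and 742 CPM. Flt3 was more even, at 173 and 109 CPM with 4 markers and 241 and 192 CPM with 7. Median depth was 18665 UMIs in WT and 20459 in CaMKK2 KO cells with 4 markers, and 25133 and 27866 with 7, and its part in the trend was not tested.

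**Figure D3:**
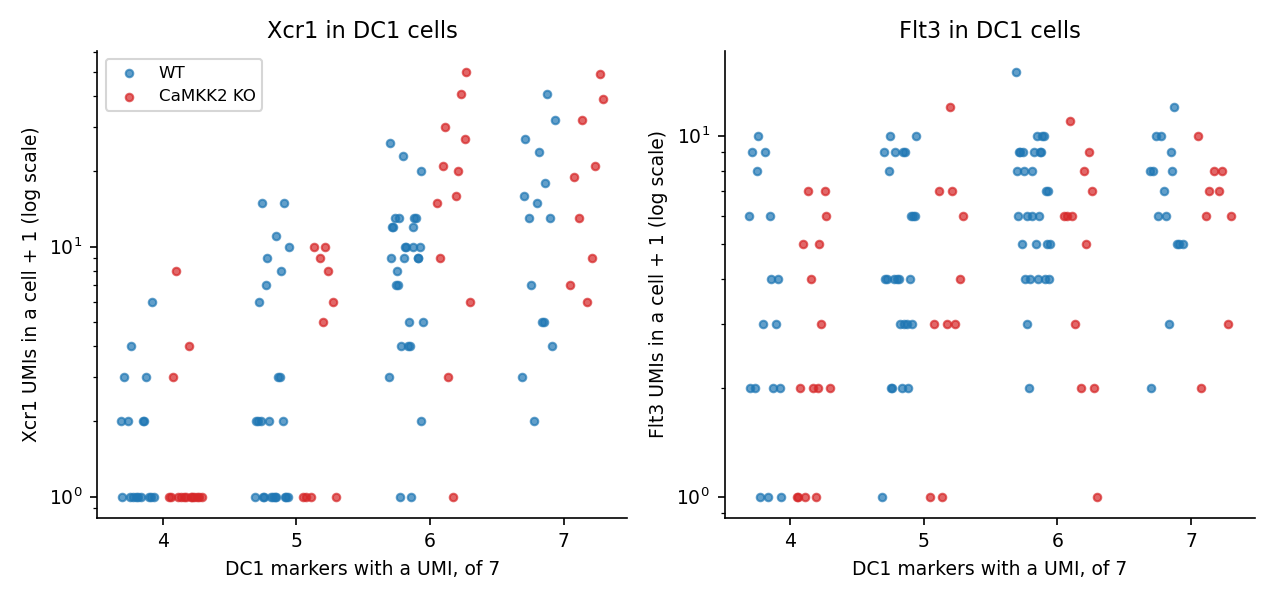
Xcr1 (left) and Flt3 (right) UMIs plus 1 in each DC1 on log axes, against the number of the 7 DC1 markers with a UMI (WT blue, CaMKK2 KO red). Xcr1 goes from mostly 0 in cells with 4 markers to at least 1 UMI in all cells with 7, while Flt3 is present in most cells throughout.

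Both receptors were seen together in most DC1, with cells pooled over the mice of a genotype and single mice not compared. Of 87 WT cells 66 had UMIs of both genes, 17 of Flt3 alone, 0 of Xcr1 alone and 4 of neither. Of 46 CaMKK2 KO cells 26 had both, 13 Flt3 alone, 3 Xcr1 alone and 4 neither. In both genotypes the cells without Xcr1 mostly still had Flt3.

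TAM, the largest class, held some Xcr1 as well. Its level there was 0.127, 0.478, 1.01 and 0.771 CPM in WT mice 1 to 4 and 6.11, 1.16, 0.252 and 0.310 CPM in CaMKK2 KO mice 1 to 4. Only CaMKK2 KO mouse 1 stood apart, where 9 TAM cells with at least 3 Xcr1 UMIs had 36 in sum, 0 Flt3 UMIs and 1 to 3 DC1 markers. The TAM log2 difference of 1.82 ± 0.94 did not pass the test (edgeR, adjusted p = 0.303), where 2.69% of 11241 genes were called. Over all cells the Xcr1 difference was -0.23 ± 0.51 (adjusted p = 0.845).

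Flt3l, the DC growth factor, was the most even of the 4 genes. NK cells had 70.3, 76.8, 67.3 and 71.0 CPM in WT mice 1 to 4 (71.4 ± 3.98, n = 4) and 65.7, 58.7, 77.2 and 70.5 CPM in CaMKK2 KO mice 1 to 4 (68.0 ± 7.79, n = 4). Neither genotype stood apart, with a log2 difference of -0.07 ± 0.12 (adjusted p = 0.848). The highest single NK cell held 8 Flt3l UMIs, against 1206 for Xcl1.

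In CD8 T cells Flt3l was at 61.8, 49.3, 40.4 and 34.8 CPM in WT mice 1 to 4 and at 46.4, 56.5, 42.8 and 46.0 CPM in CaMKK2 KO mice 1 to 4, with a log2 difference of 0.15 ± 0.18 (adjusted p = 0.780). In CD4 T cells it was at 31.7, 25.1, 43.5 and 34.6 CPM and at 20.0, 38.9, 27.3 and 29.4 CPM, with a difference of -0.16 ± 0.34 (adjusted p = 0.915). The 31.7 CPM of WT mouse 1 is 1 UMI in 6 cells. In both T cell classes the KO values lay within or close to the WT range. DC2 had less Flt3l, at 5.54 to 11.6 CPM in WT and 10.3 to 18.2 CPM in CaMKK2 KO mice, and the log2 difference there was 0.44 ± 0.35 (adjusted p = 0.671), where 0.89% of 8313 genes were called.

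NK cells exceeded other T cells in Flt3l by 0.48 on the log2(CPM + 10) scale in 7 of 8 mice (exact sign-flip permutation, adjusted p = 0.0508). The other T and CD8 T classes stood level (difference 0.01), as did regulatory and conventional CD4 T cells (0.04). With cells thinned to 3000 UMIs, 20.3% of NK, 13.7% of CD8 T and 1.32% of TAM cells had a Flt3l UMI. NK cells with and without Gzmc differed by -0.20 ± 0.18 (exact sign-flip permutation, adjusted p = 0.156), opposite in sign to Xcl1 in the same cells.

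Over all cells Flt3l was 11.5, 16.9, 14.1 and 15.9 CPM in WT mice 1 to 4 and 16.8, 16.8, 24.4 and 12.8 CPM in CaMKK2 KO mice 1 to 4, a log2 difference of 0.28 ± 0.20 (adjusted p = 0.500). The CD4 T cells held 2.33% ± 1.24 of a WT mouse's Flt3l UMIs and 7.60% ± 4.33 in CaMKK2 KO mice (n = 4 each). These shares did not overlap (exact permutation p = 0.0286, the smallest that 4 against 4 allow, adjusted over 10 shares 0.143). Conventional CD4 T cells themselves made up 0.768% ± 0.517 of the cells of a WT mouse and 3.95% ± 1.11 in CaMKK2 KO mice (exact p = 0.0286, adjusted over 16 classes 0.152).

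Flt3 was shared by all DC classes. Mature DC, the CCR7+ migratory state, had 419, 214, 237 and 212 CPM in WT mice 1 to 4 and 135, 299, 245 and 294 CPM in CaMKK2 KO mice 1 to 4, where the 419 CPM rest on 3 cells. The groups overlapped, and the log2 difference was 0.06 ± 0.27 (adjusted p = 0.975), where 0.475% of 4212 genes were called. pDC had 106, 168 and 152 CPM in WT mice 2 to 4 and 208, 213, 169 and 221 CPM in CaMKK2 KO mice 1 to 4, with 2 cells and 0 UMIs in WT mouse 1. They were too few in that mouse to be fitted.

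DC1 had 249, 259, 199 and 202 CPM of Flt3 in WT mice 1 to 4 (227 ± 31.0, n = 4) and 129, 169, 152 and 260 CPM in CaMKK2 KO mice 1 to 4 (177 ± 57.5, n = 4). The first 3 KO mice lay below all WT mice, and CaMKK2 KO mouse 4, with 3 cells, above them. The log2 difference was -0.44 ± 0.22 (edgeR, unadjusted p = 0.0637, adjusted p = 0.670). DC2 had 141, 112, 79.3 and 100 CPM in WT mice 1 to 4 and 64.2, 104, 145 and 32.8 CPM in CaMKK2 KO mice 1 to 4, a log2 difference of -0.21 ± 0.31 (adjusted p = 0.852).

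In the order of classes, mature DC exceeded DC1 in Flt3 by 0.31 on the log2(CPM + 10) scale in 7 of 8 mice (exact sign-flip permutation, adjusted p = 0.102). DC1 and pDC differed by 0.14 (exact adjusted p = 0.792), and pDC exceeded DC2 by 0.95 in 6 of 7 mice (exact adjusted p = 0.0677). DC2 exceeded classical monocytes (cMono) by 2.04 in 8 of 8 mice (exact adjusted p = 0.0339). A Flt3 UMI was seen in 91.7% of DC1, 81.7% of mature DC, 71.6% of pDC and 67.2% of DC2, at median depths of 22363, 10049, 12317 and 16494 UMIs, and in 0.573% of NK cells. Thinned to 3000 UMIs these shares were 43.6%, 48.8%, 30.5% and 24.8%, so that the order of DC1 and mature DC turned at equal UMIs.

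Outside the DC, Flt3 was lower in TAM of CaMKK2 KO mice. It was at 3.81, 4.62, 2.45 and 3.75 CPM in WT mice 1 to 4 (3.66 ± 0.895, n = 4) and at 0.382, 0.331, 0.378 and 0 CPM in CaMKK2 KO mice 1 to 4 (0.273 ± 0.183, n = 4). Every WT mouse lay above every KO mouse. The log2 difference was -3.46 ± 0.41 (SE approximated from the F statistic, edgeR, adjusted p = 0.00210). It rests on few transcripts, 110 UMIs in 81 of 1795 WT TAM and 8 UMIs in 7 of 1499 CaMKK2 KO TAM, and these fits were made after the levels had been seen.

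cMono had 63.7, 27.9, 10.7 and 25.0 CPM of Flt3 in WT mice 1 to 4 and 5.02, 3.46, 11.8 and 4.31 CPM in CaMKK2 KO mice 1 to 4. WT mouse 3, at 10.7, was below KO mouse 3, at 11.8, and the remaining mice were separated. The log2 difference was -2.22 ± 0.51 (edgeR, adjusted p = 0.0529), where 1.85% of 9209 genes were called, and it was past the threshold by DESeq2 (adjusted p = 0.000462) and with a stricter gate (0.0284). Non-classical monocytes (ncMono) had 17.2, 3.85, 10.6 and 6.79 CPM in WT mice 1 to 4 and 0, 1.13, 0 and 0 CPM in CaMKK2 KO mice 1 to 4. These were 1, 1, 3 and 1 UMIs in 8, 36, 29 and 19 WT cells. In CaMKK2 KO mice they were 0, 1, 0 and 0 UMIs in 25, 88, 13 and 39 cells, and no fit was made.

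**Figure D4:**
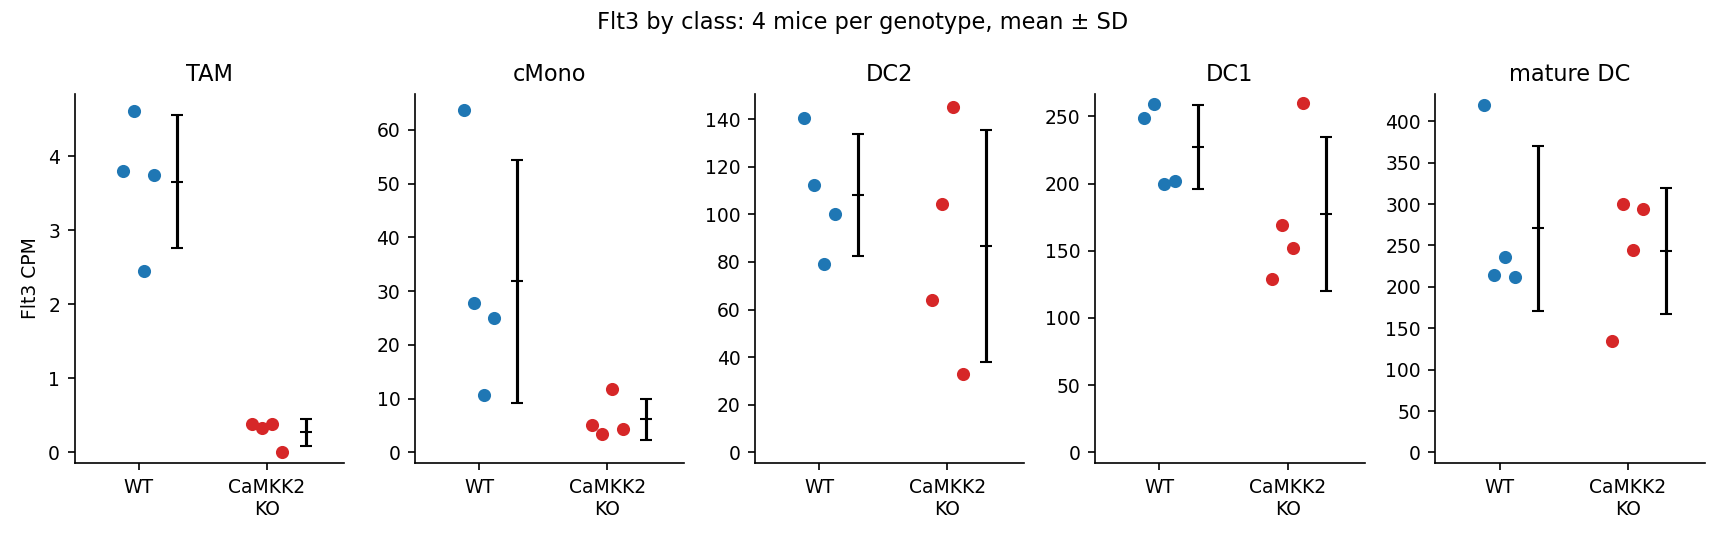
Flt3 in CPM in TAM, cMono, DC2, DC1 and mature DC, with 1 point per mouse and the mean ± SD of 4 mice beside them. The groups are apart in TAM, nearly so in cMono, and overlap in the 3 DC classes, and each panel has its own scale.

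The Flt3 of TAM and cMono was set beside DC2 markers in the same cells. In TAM without a DC2 marker Flt3 was at 5.69, 14.0, 8.04 and 3.64 CPM in WT mice 1 to 4 and at 0, 0, 0.765 and 0 CPM in CaMKK2 KO mice 1 to 4. In TAM with at least 1 DC2 marker it was at 2.86, 3.41, 1.52 and 3.77 CPM and at 0.434, 0.390, 0.302 and 0 CPM. The KO values without such a marker are 0, 0, 1 and 0 UMIs in 68, 75, 94 and 52 cells. Those with at least 1 marker are 3, 2, 2 and 0 UMIs. The groups did not overlap in either subset of TAM, which were compared as 1 class, and their make-up by subtype was not compared. In cMono without a DC2 marker Flt3 was at 58.1, 36.3, 12.2 and 22.5 CPM in WT mice 1 to 4 and at 5.18, 1.80, 11.3 and 1.05 CPM in CaMKK2 KO mice 1 to 4. In cMono with at least 1 such marker it was at 76.2, 21.3, 9.34 and 27.8 CPM and at 4.88, 4.99, 12.3 and 7.37 CPM. The groups were apart in the first of these cMono subsets and overlapped in the second, where WT mouse 3 lay below KO mouse 3. In the first they were apart only narrowly, by 18 UMIs in WT mouse 3 (12.2 CPM) and 8 UMIs in KO mouse 3 (11.3 CPM). The 76.2 CPM of WT mouse 1 is 7 UMIs in 7 cells. In lymphocytes (NK, T and B cells), Flt3 was at 0.257 to 1.82 CPM in WT and 0.246 to 3.26 CPM in CaMKK2 KO mice, and the part of such transcripts in the TAM values was not tested.

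Over all cells Flt3 was 20.0, 25.3, 18.9 and 25.0 CPM in WT mice 1 to 4 (22.3 ± 3.32, n = 4) and 9.37, 15.1, 19.2 and 13.6 CPM in CaMKK2 KO mice 1 to 4 (14.3 ± 4.06, n = 4). KO mouse 3 was above WT mouse 3 and the groups otherwise did not cross. The log2 difference was -0.64 ± 0.21 (edgeR, unadjusted p = 0.0127, adjusted p = 0.178). The pDC held 4.40% ± 3.08 of Flt3 UMIs in WT and 11.9% ± 4.14 in CaMKK2 KO mice (exact permutation p = 0.0286, adjusted 0.143).

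DC1 and DC2 differed in size between the genotypes before adjustment. DC1 were 1.95%, 1.41%, 1.20% and 2.26% of cells in WT mice 1 to 4 and 1.08%, 0.783%, 1.06% and 0.262% in CaMKK2 KO mice 1 to 4. DC2 were 5.93% ± 0.751 in WT and 2.73% ± 0.877 in CaMKK2 KO mice. Neither class overlapped between the groups (exact permutation p = 0.0286 each, the smallest possible, adjusted over 16 classes 0.152). Mature DC were 1.32% and 1.76% (exact p = 0.457, adjusted 0.665) and pDC 0.799% and 0.892% (exact p = 0.771, adjusted 0.8286), and both overlapped. NK cells were 11.2% ± 1.44 and 14.0% ± 4.45 (exact p = 0.314, adjusted 0.610).

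The ligand and receptor sides were then set against each other within each mouse, by 3 ratios chosen after the levels had been seen. There were 5.15, 8.05, 8.56 and 5.84 NK cells per DC1 in WT mice 1 to 4 and 11.7, 21.3, 17.4 and 32.3 in CaMKK2 KO mice 1 to 4. The value of CaMKK2 KO mouse 4 is that of 97 NK cells over 3 DC1. Flt3l UMIs per Flt3 UMI were 0.573, 0.667, 0.744 and 0.637 in WT mice 1 to 4 and 1.79, 1.12, 1.27 and 0.944 in CaMKK2 KO mice 1 to 4. Both ratios were higher in every KO mouse than in any WT mouse, by 1.52 and 0.93 on the log2 scale (exact permutation p = 0.0286, adjusted over the 3 ratios 0.0429 each). Since the ratios were picked from levels already seen, these p-values are no independent test. The DC1 and NK shares taken alone had not passed (exact permutation, adjusted p = 0.152 and 0.610). Nor had Flt3l and Flt3 over all cells (edgeR, adjusted p = 0.500 and 0.178).

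Xcl1 UMIs per Xcr1 UMI were 10.4, 13.6, 22.0 and 9.60 in WT mice 1 to 4 and 11.2, 20.0, 22.9 and 39.1 in CaMKK2 KO mice 1 to 4. The 39.1 of CaMKK2 KO mouse 4 rests on 18 Xcr1 UMIs. The groups overlapped, with a log2 difference of 0.69 (exact permutation p = 0.2). Of the ligand to receptor ratios, then, the values of the growth factor pair did not overlap between the genotypes and those of the chemokine pair did.

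**Figure D5:**
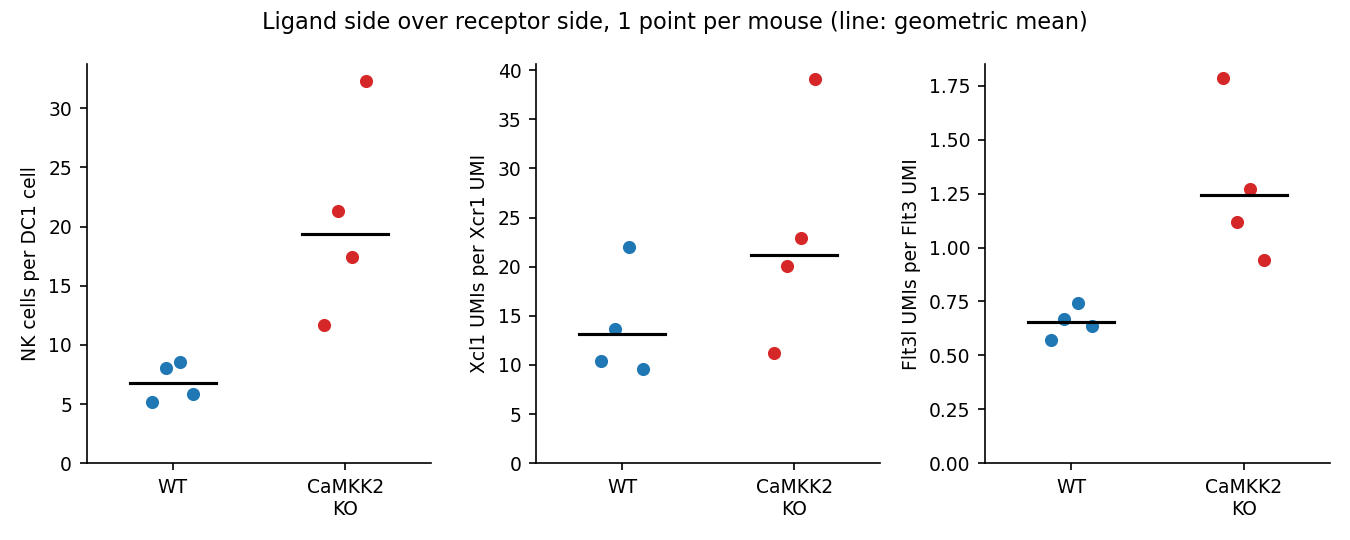
NK cells per DC1, Xcl1 UMIs per Xcr1 UMI and Flt3l UMIs per Flt3 UMI over all cells, with 1 point per mouse and the geometric mean as a line. The first and the last ratio are higher in all 4 CaMKK2 KO mice than in the WT mice, and the Xcl1 to Xcr1 ratio overlaps. In CaMKK2 KO mouse 4 the first ratio rests on 3 DC1 and the Xcl1 to Xcr1 ratio on 18 Xcr1 UMIs.

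The genes whose levels followed each of the 4 most closely were found over 105 sums of a class in a mouse, as a description, since the sums share libraries and depth. Xcl1 was followed by Samd3 (Pearson r = 0.943), Klre1 (0.900, a marker of the NK gate), Spry2 (0.897), Klra7 (0.887) and Klrc2 (0.885), where Klre1, Klra7 and Klrc2 encode NK receptors. Xcr1 was followed by Gpr141b (0.956), Snx22 and Gcsam (0.955 and 0.940, both markers of the DC1 gate), Gpr33 (0.933) and Tlr11 (0.918), a receptor for microbial profilin. Flt3l was followed by Nlrc3 and Sh2d2a (0.873 each), Ctla2a (0.872), Gm19585 (0.868) and the lymphocyte kinase gene Txk (0.866). Flt3 had lower values, led by Syngr2 (0.840), Kynu (0.834), Cbfa2t3 (0.832), Net1 (0.830) and Dapp1 (0.827).

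Other genes of the same pathways were read from lists. In NK cells, of the 11 listed chemokine and cytokine genes of NK and CD8 T cells, 10 were tested, 2 rose and 2 fell. In that fit 3.09% of all genes tested were called (189 higher and 105 lower). The median log2 difference of the list was 0.67, beside 0.07 over all genes tested. Whether their products are released together with XCL1 was not tested. Ccl5 rose from a mean of 1841 CPM in WT to 6923 CPM in CaMKK2 KO mice (log2 1.91, adjusted p = 0.00663), although the lowest KO mouse, at 1819 CPM, lay inside the WT range. Ccl4 rose from 187 to 892 CPM (2.25, adjusted p = 0.0471), a call that was lost in 11 of 15 alternatives, DESeq2 among them (adjusted p = 0.161). Lta and Ltb, which encode lymphotoxins, fell by 2.05 and 0.75 on the log2 scale (adjusted p = 0.0308 and 0.000774), and the call of Lta was lost in 6 of 14 alternatives. Ccl5 also rose in TAM (log2 3.56, adjusted p = 0.0320, lost in 5 of 15 alternatives) and cMono (3.72, adjusted p = 0.00947), and the part of this rise in the NK values was not tested. It was the only call of the list there, of 8 genes tested in TAM and 7 in cMono. In CD8 T cells none of the 10 genes of this list that were tested passed the adjusted threshold by edgeR.

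The lists of the receptor side were read in DC. Of the 15 genes of Flt3 signal transduction, 0 of 14 tested in DC1, 0 of 15 in DC2 and 0 of 12 in mature DC passed by edgeR, where 0.517%, 0.89% and 0.475% of all genes tested were called. Of the 13 DC transcription factors, none of 11 tested passed in DC1, and in DC2 Id2, an inhibitor of E proteins, fell by 0.92 on the log2 scale (adjusted p = 0.0406, lost in 8 of 15 alternatives). Of the growth factor receptors besides Flt3, 0 of 5 tested in DC1, 0 of 5 in DC2 and 0 of 2 in mature DC passed. Outside the DC, Kit, the receptor tyrosine kinase related to FLT3, fell by 1.32 on the log2 scale in NK cells (adjusted p = 0.0168) and from a mean of 14.6 to 0.139 CPM in CD8 T cells (adjusted p = 0.000222). It was the only call of that list, of 5 genes tested in NK cells and 4 in CD8 T cells. The CaMKK2 KO mean in CD8 T cells is near the floor of the counts. Of the DC chemokine receptors, 1 of 7 tested passed in DC2, 0 of 6 in DC1 and 0 of 3 in mature DC. In DC2 Ccr2 rose by 1.41 (adjusted p = 0.0286, lost in 8 of 15 alternatives). Ccr2 is also a marker of the cMono gate, and the DC2 gate set no limit on cMono markers. The part of monocyte transcripts in this rise was not tested. Of the genes of cross-presentation and T cell activation, Cxcl9, the CXCR3 ligand, rose in DC1 from 322 to 1066 CPM (log2 1.73, adjusted p = 0.0471, lost in 12 of 15 alternatives) and in mature DC by 3.24 (adjusted p = 0.0193, lost in 5 of 15 alternatives). It was the only call of that list, of 9 genes tested in DC1 and 11 in mature DC, and 0 of 12 passed in DC2.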

How the data were processed

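The authors used bcl2fastq 2.20, Cell Ranger 4.0.0 and STAR 2.7.5c on the reads, with mm10 as the genome. They deposited UMI counts per gene and barcode, not normalized, with 4 hashtags per library as further features. Gene and hashtag counts of the WT and CaMKK2 KO libraries were used, and the other experiments of the series were not used here. The members and the gene lists were chosen with earlier results of these data known.

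Barcodes were assigned to mice with HTODemux (Seurat 5.3.0, quantile 0.99), which left out 667 WT and 508 CaMKK2 KO doublets and 48 and 67 negative barcodes. Cells with fewer than 200 genes and outliers by 3 median absolute deviations (isOutlier, scuttle 1.12.0; 698 WT and 896 CaMKK2 KO) were removed, and a further 141 and 172 were removed by Scrublet (scanpy 1.11.5; expected rate 0.8% for every 1000 barcodes). A class required 3 to 6 of its markers with a UMI, and thresholds were set after marker counts had been seen. Cells that met no gate, or several, stayed ungated.

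For each class, the UMIs of a mouse were added up and scaled to CPM by the total of that sum. Genes with at least 50 UMIs were tested with the quasi-likelihood test of edgeR 4.0.16 on total library sizes, with Benjamini-Hochberg adjustment over all genes tested and a threshold of 0.05. Log2 fold changes are CaMKK2 KO over WT. The ± values of these fits, given as SE, are the size of the log2 difference divided by the square root of the F statistic. They are approximate and were not estimated by the model itself. On counts simulated at the depths of these classes, with 200 genes changed 4-fold, the edgeR test recovered 98.5% of them in NK cells, 91.0% in DC1 and 93.5% in TAM, and 8.80%, 4.21% and 4.59% of its calls were false. False calls were 8.13% in CD8 T cells, 7.28% in cMono and 6.8% in DC2. In these classes and in NK cells the false share was above the threshold of 0.05. Recovery was lowest in CD4 T cells (85.5%) and all cells (86.5%). Smaller changes were not simulated, so recovery at differences below 4-fold is not known. Shares and ratios were compared by exact permutation tests (two-sided, 4 mice in each group), and classes within mice by two-sided exact sign-flip tests of log2(CPM + 10), down to a median of 10 CPM. The correlations used genes with at least 50 UMIs and sums of at least 10 cells. Genes of the lists were named when they passed, at most 6 per list and class. Some genes that meet this rule are left out of the text. The hashtag number is a shared antibody and pairs no mice. Fits of TAM and cMono, the ratios, the pairs of neighbouring classes and the listed cells were chosen from the values themselves or after they had been seen.

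Alternatives were TMM scaling, DESeq2 1.42.0, minima of 1 and 200 UMIs, other cell filters, a stricter gate, the mean of cells, unthinned shares, and each mouse left out. Positions come from GENCODE M21 and promoters from the RefSeq table of GRCm38.p6. Promoters of all 4 members matched by symbol. Limits at 0 UMIs use 3 counts and cover counting error only. Scripts ran in R 4.3.3 and in Python 3.11.15 with scipy 1.17.1, numpy 2.4.6 and pandas 2.3.3.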

Additional observations from a re-analysis of the deposited data

Results flagged for a closer look

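Within a genotype, 118 groups of 4 mice were examined for a single mouse far from the other 3 by Dixon's ratio, which chance exceeds in about 1 of 20 groups, and 8 were found. Flt3 in mature DC was at 419 CPM in WT mouse 1, which had 3 such cells, and at 212 to 237 CPM in the other WT mice. Xcl1 over all cells was at 52.3 CPM in WT mouse 1 and at 128 to 137 CPM in the other WT mice. Flt3 in TAM was at 0 CPM in CaMKK2 KO mouse 4 and at 0.331 to 0.382 CPM in the other KO mice. Its 228 TAM with 0 Flt3 UMIs allow a share of cells with a UMI of up to 1.32%, from counting error, which does not bound the cells that express the gene. Xcr1 in TAM was at 6.11 CPM in CaMKK2 KO mouse 1 and at 0.252 to 1.16 CPM in the other KO mice. Conventional CD4 T cells were 0% of cells in WT mouse 1 and 0.964% to 1.12% in the other WT mice. DC2 were 7.05% of cells in WT mouse 4 and 5.53% to 5.56% in the other WT mice. With cells thinned to 3000 UMIs, 73.7% of DC1 in WT mouse 2 had a Flt3 UMI, beside 43.8% to 45.0% in the other WT mice, and 15.4% of mature DC in CaMKK2 KO mouse 1, beside 56.5% to 59.3% in the other KO mice.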

How the results depend on the processing

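Of 905 alternatives over 67 results, 708 kept direction and side of the threshold, 149 lost a call, 16 gained one and 32 reversed, the last all in differences that had not passed. Flt3 in TAM passed in every alternative that gave a value (adjusted p 3.35e-06 to 0.0112). The minimum of 200 UMIs gave no value for Flt3 and Xcr1 in TAM, Flt3 in cMono, Flt3l in DC2, or Xcl1 and Flt3l in CD4 T cells. Flt3 in cMono passed at -2.20 with TMM, -2.28 with DESeq2, -2.22 with at least 1 UMI and -2.83 with the stricter gate, and ranged from -2.64 to -1.90 with a mouse left out, where it passed without WT mouse 3 (adjusted p = 0.0192) or CaMKK2 KO mouse 3 (0.0242). With doublet-scored cells kept, CD8 T cells exceeded conventional CD4 T cells in Xcl1 by 2.50, NK exceeded other T cells in Flt3l by 0.55 and pDC exceeded DC2 in Flt3 by 0.94, and each passed. They also passed, at 2.204 and 0.44 for the first 2, with the stricter gate, and at 0.53 and 0.96 for the last 2 by the mean of cells. Over all alternatives the exact sign-flip adjusted p of the 3 pairs reached 0.135, 0.102 and 0.384.

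Signs reversed for Flt3l in NK with outlying cells kept (0.058), Xcl1 in CD8 T with doublet-scored cells kept (-0.086), Flt3 in DC2 with the stricter gate (0.11) and Xcl1 in all cells without the top cell (-0.039). The share of DC1 with Xcr1 became higher in CaMKK2 KO mice, by 0.892 percentage points with outlying cells kept and 7.99 with the stricter gate. Other T minus CD8 T turned to -0.060, -0.16 and -0.061 for Xcl1 with outlying cells kept, doublet-scored cells kept and the mean of cells, and to -0.055 and -0.028 for Flt3l under the last 2. Flt3l in regulatory minus conventional CD4 T cells turned to -0.049 by the mean of cells. The cause was not tested.

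With each mouse left out, signs turned in ranges of -0.28 to 0.18 for Xcl1 and -0.16 to 0.0045 for Flt3l in NK, -0.19 to 0.81 for Xcl1 in CD8 T, -0.056 to 0.24 for Flt3 in mature DC, and -0.064 to 0.52 for Xcl1 and -0.46 to 0.089 for Xcr1 in all cells. Between classes these were -0.22 to 0.34 and -0.024 to 0.057 for Xcl1 and Flt3l in other T minus CD8 T, -0.21 to 0.24 for Flt3l in regulatory minus conventional CD4 T and -0.044 to 0.27 for Flt3 in DC1 minus pDC. NK minus other T for Xcl1 (2.90 to 3.40), DC1 minus DC2 for Xcr1 (4.43 to 4.99), DC2 minus cMono for Flt3 (1.89 to 2.18), NK cells per DC1 (1.27 to 1.76) and Flt3l per Flt3 UMI (0.76 to 1.06) no longer passed with any mouse left out, where fewer mice raise the smallest possible p.

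Of the listed genes, Ccl5 and Ltb in NK and Kit, Ccr2 and Ccr7 in CD8 T cells kept their call in every alternative that gave a value. Kit gave a value in only 11 alternatives, among them 6 of 8 mice left out, so its call was checked less fully. Ccl5 and Ltb gave a value in 15 alternatives. The call was lost in 11 of 15 alternatives for Ccl4 in NK and 12 of 15 for Cxcl9 in DC1, among them 7 of 8 mice left out for each. No paired analysis was possible because the hashtag number is only an antibody that mice of both genotypes share. Depth limits Flt3 in TAM, with 8 UMIs in all CaMKK2 KO mice, and both receptors in DC1 of CaMKK2 KO mouse 4, with 3 cells.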

Other observations

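Further genes of the lists passed the test in classes that carry the ligands. In NK cells 2 of 11 DC transcription factors tested rose, as did 1 of 15 genes of Flt3 signal transduction. Of 7 genes of cross-presentation and T cell activation tested there, 2 rose and 1 fell. The NK fit called 3.09% of 9515 genes. In NK cells Irf8 (log2 0.50, adjusted p = 0.0207), Id2 (0.38, adjusted p = 0.0421), Pik3r1, a regulatory subunit of PI3 kinase (0.71, adjusted p = 0.0139), and Tap1, a peptide transporter (0.51, adjusted p = 0.0204), were higher in CaMKK2 KO mice. The call was lost in 9 of 15 alternatives for Id2, 6 of 15 for Irf8 and for Tap1, and 2 of 15 for Pik3r1. Of the CXCR3 ligands, Cxcl9 was higher in NK cells, from a mean of 3.17 CPM to 18.6 CPM (adjusted p = 0.0102), and Cxcl10 was lower, at 95.0 and 29.3 CPM (adjusted p = 0.00834). With doublet-scored cells kept neither passed, at log2 differences of 0.47 for Cxcl9 (adjusted p = 0.907) and -1.04 for Cxcl10 (adjusted p = 0.292), and with the stricter gate Cxcl10 was at -1.58 (adjusted p = 0.0575). The NK sums held transcripts of the cMono list at a summed 1211 CPM and of the TAM list at 165 CPM. Cxcl9 also rose in DC1 and mature DC. The part of transcripts from other classes in the NK values of Cxcl9 and Cxcl10 was not tested.

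In CD8 T cells, the chemokine receptor gene Ccr2, also a marker of the cMono gate, rose by 1.66 on the log2 scale (adjusted p = 0.0103), and Ccr7, the lymph node homing receptor, and Stat3 fell by 1.86 and 0.66 (adjusted p = 0.00595 and 0.0314). Of 6 DC chemokine receptors tested in CD8 T cells 2 rose and 1 fell. Of 14 genes of Flt3 signal transduction 1 fell, in a fit that called 1.43% of all genes tested. In CD4 T cells Csf2, the gene of GM-CSF, a further DC growth factor, ranged from 0 to 3.46 CPM over the WT mice and from 20.0 to 115 CPM over the KO mice (adjusted p = 0.0366). Cxcl9 had 0 UMIs in each WT sum and 15.2 to 50.8 CPM in the KO sums (adjusted p = 0.0176). In CD4 T cells 1 of 2 growth factors tested and 1 of 7 genes of cross-presentation and T cell activation passed. That fit called 1.55% of all genes tested. The CD4 T sums pool regulatory and conventional cells. Conventional cells were 0 of 6, 13 of 38, 15 of 31 and 14 of 38 in WT mice 1 to 4. In CaMKK2 KO mice 1 to 4 they were 37 of 59, 91 of 109, 54 of 117 and 45 of 54. The part of this make-up in the Csf2 and Cxcl9 values was not tested. Conventional CD4 T cells also held transcripts of the TAM list at a summed 807 CPM. The part of transcripts from other classes in the Cxcl9 values was not tested either. In cMono the costimulatory gene Cd80 fell by 1.21 (adjusted p = 0.0119), and over all cells Ccl3 fell by 0.99 (adjusted p = 0.0356). Each was the only call of its list, of 12 genes tested in cMono and 11 over all cells. These fits called 1.85% and 1.64% of all genes tested. The call was lost in 8 of 14 alternatives for Ccl3, 7 of them with a mouse left out, in 7 of 14 for Stat3, 5 of 14 for Csf2, 4 of 14 for Cxcl9 in CD4 T cells and 1 of 15 for Cd80. All these p-values are from edgeR.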
